A study of Mus musculus with 22 samples.

Results

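The genes described here are 9 genes of iron-sulfur cluster assembly, Isca1, Isca2, Iscu, Nfs1, Lyrm4, Glrx5, Ciao1, Nfu1 and Hscb, taken by symbol from 2 deposited tables of 24411 entries each. All 9 were present in both tables and all 9 passed the filter on low counts in both. The group was proposed with the knockdown result of Isca1 in view, so the knockdown values of the 9 genes are given as a description. Their calls in the fit across all genes are only counted beside those of all genes, with no p-value printed.

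RNA was sequenced from primary neural stem cells of the adult mouse hippocampus, grown as plated cells in medium with EGF and bFGF, in 22 libraries. In the knockdown arm, 5 ShOgt libraries (numbered 1, 2, 3, 5 and 6) came from cells given a lentivirus encoding an shRNA against Ogt, and 6 ShLuc libraries came from cells given a control shRNA lentivirus. Both used 10 viral particles per cell, and RNA was taken after 3 days. In the inhibitor arm, 5 OSMI libraries (numbered 1, 2, 4, 5 and 6) came from cells given OSMI-1, a compound that inhibits the O-GlcNAc transferase OGT, at 12.5 µM, and 6 Vehicle libraries came from cells given the same volume of DMSO, both for 24 hours. The labels name no genotype, strain or age, no separate animals or cultures, and no promoter of the shRNA. Spread between libraries of a group may therefore be technical, and the p-values measure that spread alone. Each arm was normalized on its own, so levels are compared only within an arm.

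Iron-sulfur clusters are cofactors of iron and sulfide that carry electrons, bind substrates or hold a protein's shape. In mitochondria, a cysteine desulfurase supplies sulfur, a scaffold protein holds the new cluster, a chaperone pair releases it, and carrier proteins pass it to enzymes of respiration and lipoic acid synthesis. A second system in the cytosol delivers clusters to proteins that include DNA polymerases, primase and DNA helicases, which dividing cells such as neural stem cells use to copy their genome.

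The position of each gene, from GENCODE M21 on GRCm38, gives the context for the sequences. Isca1 lies at chr13:59755409-59769810 on the minus strand, and its near relative Isca2 at chr12:84773251-84775088 on the plus strand. Nfs1 lies at chr2:156123639-156144186 and Ciao1 at chr2:127240938-127247816, both on the minus strand. Nfu1 lies at chr6:87009236-87028461, Iscu at chr5:113772748-113778288 and Glrx5 at chr12:105032688-105042906, all on the plus strand, and Lyrm4 at chr13:35978395-36117526 and Hscb at chr5:110829070-110839777, both on the minus strand.

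Isca1 carried the largest change of the 9 genes, and the letters AACATGC occur in its 3′ untranslated region. These letters had been singled out in an earlier examination of the knockdown result, so what follows describes where they lie. In 1 annotated transcript per gene, Isca1 held 2 copies in a 3′ untranslated region of 1446 bases, Ciao1 held 1 copy in 1859 bases, and the other 7 genes held none. Isca2 held no copy in its shorter region of 368 bases. The sites are printed to show where they lie. Each is given 5′ to 3′ on the transcript's strand (minus for all 3), with the 7 letters in capitals.
Isca1, chr13:59755850-59755878: ctgtggagcggAACATGCcattctgacac
Isca1, chr13:59755413-59755441: tgtcgattaaaAACATGCatctttatgat
Ciao1, chr2:127242389-127242417: cttgcatttaaAACATGCaagctagctgt

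The promoter of Isca1 is printed because the gene stands apart from the other 8 in the knockdown arm. RefSeq windows on GRCm38.p6, running from 250 bases before to 50 bases after a gene's RefSeq start, matched 7 of the 9 genes, all but Iscu and Hscb. RefSeq starts can differ from the GENCODE positions above. The window of Nfu1, at chr6:87009586-87009885, lies wholly inside the gene as placed there. The window of Isca1 lies at chr13:59769740-59770039 on the minus strand. Capitals mark CCGGAAG, a core sequence of ETS family factors, here on the opposite strand, and TGCGCA, a core sequence of NRF1 sites.
Isca1 promoter: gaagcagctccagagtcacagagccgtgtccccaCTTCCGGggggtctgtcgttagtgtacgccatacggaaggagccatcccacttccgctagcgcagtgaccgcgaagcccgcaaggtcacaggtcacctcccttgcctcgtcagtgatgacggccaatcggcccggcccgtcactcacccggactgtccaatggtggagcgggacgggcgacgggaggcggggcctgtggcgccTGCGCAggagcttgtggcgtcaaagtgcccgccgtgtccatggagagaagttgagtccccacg

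Both strands of every window were searched, with no overlap between these motifs. CCGGAAG occurred in 4 of the 7 windows (Ciao1, Nfs1, Isca2 and Isca1), against 8.86% of all 32851 windows. TGCGCA occurred in 2 of 7 (Ciao1 and Isca1), against 7.76% of all windows. GGGCGG, the core of a GC box, occurred in 4 of 7 (Ciao1, Nfu1, Isca2 and Lyrm4), against 35.7%. CCAAT occurred in 4 of 7 (Nfu1, Isca2, Glrx5 and Isca1), against 37.4%. TATAAA occurred in 0 of 7, against 13.6% of all windows. The 7 windows held 13 to 35 CG dinucleotides and 50.3 to 73.3% G and C, whereas the medians over all windows were 7 CG dinucleotides and 52.7% G and C. Both lowest values were those of the Nfu1 window. The 32851 windows covered 27025 symbols and were not limited to genes tested here. Whether expression or CG content has a part in the motif shares was not tested, so they are a description only.

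The libraries held 7.22 to 11.2 M reads in ShOgt and 9.85 to 13.2 M in ShLuc, and 4.59 to 12.8 M in OSMI and 4.52 to 5.93 M in Vehicle. The share of the ribosomal RNA precursor Rn45s was 0.921 to 1.25% in knockdown libraries and 4.81 to 14.2% in libraries of the inhibitor arm. ShOgt 3, ShLuc 1 and ShLuc 3, and OSMI 5 and Vehicle 1, stood apart from their groups on principal components, and calls that are lost without them are named beside the result. On the second component, OSMI 6 (-12.3) lay beside OSMI 5 (-14.0), away from OSMI 1, 2 and 4 (5.39 to 12.5). OSMI 6 was not left out with OSMI 5. Ogt, the targeted gene, averaged 424 ± 63.9 normalized counts in ShOgt and 836 ± 89.8 in ShLuc, without overlap (SD, n = 5 and 6). It averaged 599.9 ± 42.5 in OSMI and 455 ± 37.6 in Vehicle, also without overlap. Of the neural stem cell markers, 8 of 10 passed the filter in the knockdown arm and 7 of 10 in the inhibitor arm: Nes averaged 5228 counts in ShOgt and 5591 in ShLuc, while Msi1 averaged 1.71 in ShOgt and 3.62 in ShLuc. Microglial markers summed to at most 40.9 counts in any library, with Cx3cr1 at 0 throughout the knockdown arm and Aif1 at 0 throughout the inhibitor arm. Vessel and fibroblast markers summed to at most 64.1 counts in any library. Several summed marker lists separated the groups without overlap. In the knockdown arm, oligodendrocyte lineage markers summed to 10010 to 11540 counts in ShOgt and 17770 to 20740 in ShLuc, and neuron markers to 2885 to 3317 in ShOgt and 3383 to 4032 in ShLuc. In the inhibitor arm, neural stem cell markers summed to 16440 to 18260 in OSMI and 21760 to 26330 in Vehicle, and astrocyte markers to 2403 to 2680 in OSMI and 1929 to 2268 in Vehicle. For the other arm of each of these lists the sums overlapped. A few high genes made up most of each sum, and some genes of the lists went the other way. Map2 averaged 2576 counts in ShOgt and 3375 in ShLuc, but Tubb3 397 and 235. In the inhibitor arm, Slc1a3 averaged 3455 in OSMI and 5318 in Vehicle, but Nes 3027 and 2892. Aldh1l1 averaged 1750 in OSMI and 1410 in Vehicle, but Gfap, which did not pass the filter there, 3.20 and 8.97. The part of these markers in the results below was not tested.

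In the knockdown arm, the 2 A-type assembly genes differed most from their controls and in opposite directions. ISCA1 and ISCA2 work together late in the mitochondrial pathway, where clusters are built for lipoic acid synthase and respiratory enzymes. Isca1 was lower in ShOgt, at 28.9% of its ShLuc mean, and Isca2 was higher, at 139%. For the other 7 genes the library values of ShOgt and ShLuc overlapped. In the bulk RNA, fewer cells of a type and less RNA per cell cannot be told apart.

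Isca1 had 487, 482, 442, 682 and 434 normalized counts in ShOgt libraries 1, 2, 3, 5 and 6. In the 6 ShLuc libraries it ran from 1656 through a median of 1739 to 1866. All 5 ShOgt libraries lay far below every ShLuc library, and ShOgt 5 was the highest of them. The means were 505 ± 101 in ShOgt and 1748 ± 84.3 in ShLuc (SD, n = 5 and 6), a log2 fold change of -1.81 ± 0.10 (SE). That fold change was the 29th lowest of 12136 genes tested. Fold changes here are on the log2(normalized count + 1) scale, which understates changes of low genes.

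Isca2 had 663, 713, 589, 772 and 635 counts in ShOgt libraries 1, 2, 3, 5 and 6. Its ShLuc values ran from 447 through a median of 485 to 524. Every ShOgt library lay above every ShLuc library, with ShOgt 3 the nearest to them. The means were 674 ± 70.7 in ShOgt and 485 ± 29.7 in ShLuc, a log2 fold change of 0.47 ± 0.09. Within each library, the ratio of Isca1 to Isca2 counts was 0.676 to 0.884 in ShOgt and 3.19 to 4.05 in ShLuc. Isca1 gave more counts than Isca2 in all ShLuc libraries and fewer in all ShOgt libraries.

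**Figure D1:**
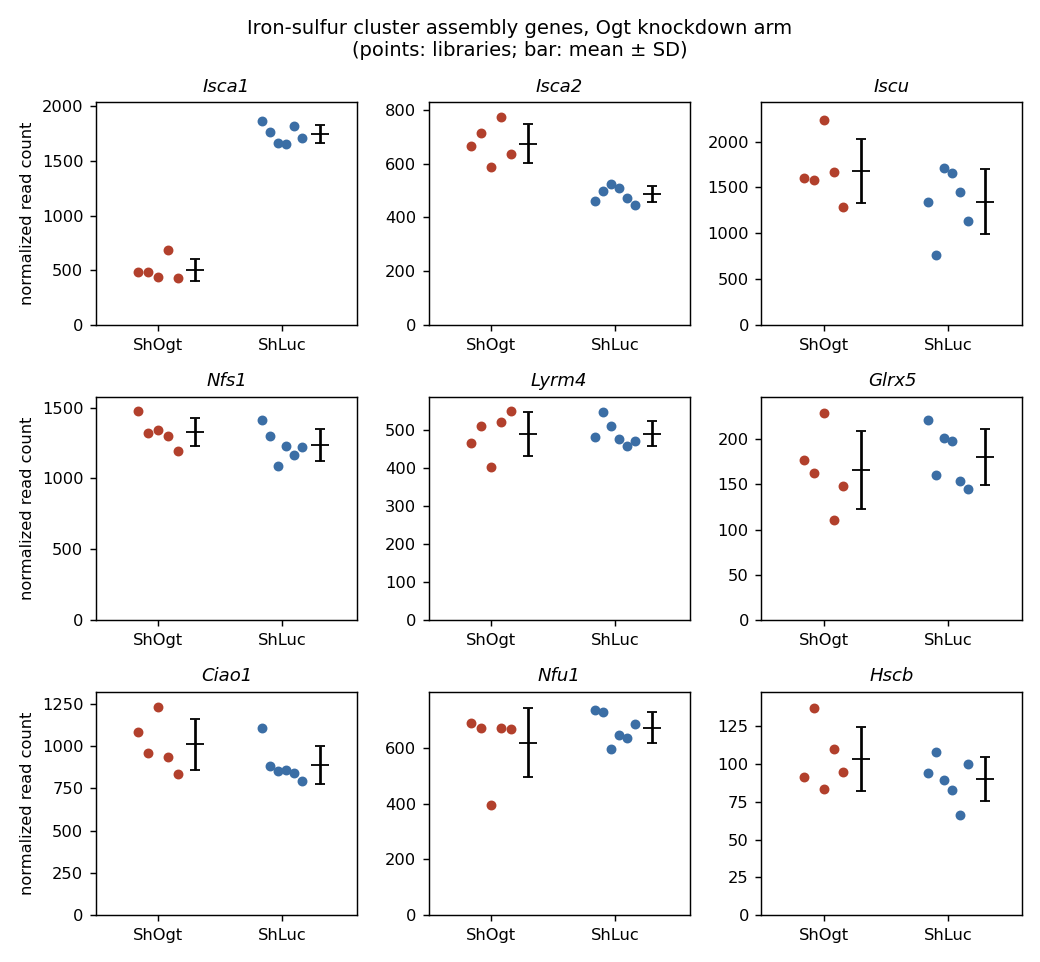
Normalized read counts of the 9 assembly genes in each library of the knockdown arm, ShOgt left and ShLuc right, with the mean ± SD beside the points and axes starting at 0. The groups are separate for Isca1 (434 to 682 in ShOgt, 1656 to 1866 in ShLuc) and Isca2 (589 to 772 in ShOgt, 447 to 524 in ShLuc) and overlap for the other 7 genes.

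For the genes that make and hold the new cluster, the groups overlapped. Nfs1, the cysteine desulfurase, averaged 1328 ± 101 counts in ShOgt and 1235 ± 112 in ShLuc (log2 fold change 0.11 ± 0.08). Lyrm4, the small protein that stabilizes the desulfurase, averaged 489.5 ± 57.7 in ShOgt and 490.3 ± 33.0 in ShLuc (-0.01 ± 0.10). The scaffold gene Iscu averaged 1676 ± 348 in ShOgt and 1345 ± 356 in ShLuc (0.34 ± 0.17). Its ShLuc libraries alone ran from 761 to 1718, and 1 of 5 ShOgt libraries (ShOgt 3, at 2239) lay above them all. Without ShLuc 2, the lowest library, the fold change of Iscu was 0.19, and without ShOgt 6 it was 0.43. Among same-numbered libraries the ShOgt value of Iscu was always the higher, though the labels do not state that the numbers are pairs.

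Among the genes that release and carry the cluster, none had separate groups. Hscb, the co-chaperone that binds the loaded scaffold, averaged 103 ± 21.2 in ShOgt and 90.1 ± 14.5 in ShLuc (0.19 ± 0.19), from 59 to 139 recovered reads per ShOgt library and 70 to 116 per ShLuc library. Glrx5, a monothiol glutaredoxin that carries clusters in mitochondria, averaged 165 ± 43.1 in ShOgt and 179.9 ± 30.8 in ShLuc (-0.14 ± 0.18). Nfu1, a late carrier that serves lipoic acid synthase and respiratory complexes, had 687, 673, 395, 672 and 667 counts in ShOgt libraries 1, 2, 3, 5 and 6, and 597 through 666 to 736 in ShLuc. Apart from ShOgt 3, which was below all others, the ShOgt libraries of Nfu1 sat inside the ShLuc range, and its log2 fold change was -0.14 ± 0.13 with ShOgt 3 and 0.01 without it. Ciao1, part of the cytosolic complex that targets clusters to recipient proteins, averaged 1010 ± 154 in ShOgt and 889 ± 111 in ShLuc (0.18 ± 0.10).

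Counted by the test across all genes (limma, Benjamini-Hochberg adjusted p below 0.05), 1 of the 9 genes was called higher in ShOgt (Isca2) and 1 lower (Isca1). Over all 12136 genes tested, 31.8% were called, 15.4% higher and 16.4% lower. The groups did not overlap in 2 of 9 assembly genes and in 18.8% of all genes. The median log2 fold change was 0.11 over the 9 genes and 0.01 over all genes. Since the knockdown result helped to choose the genes, nothing is read from these counts.

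**Figure D2:**
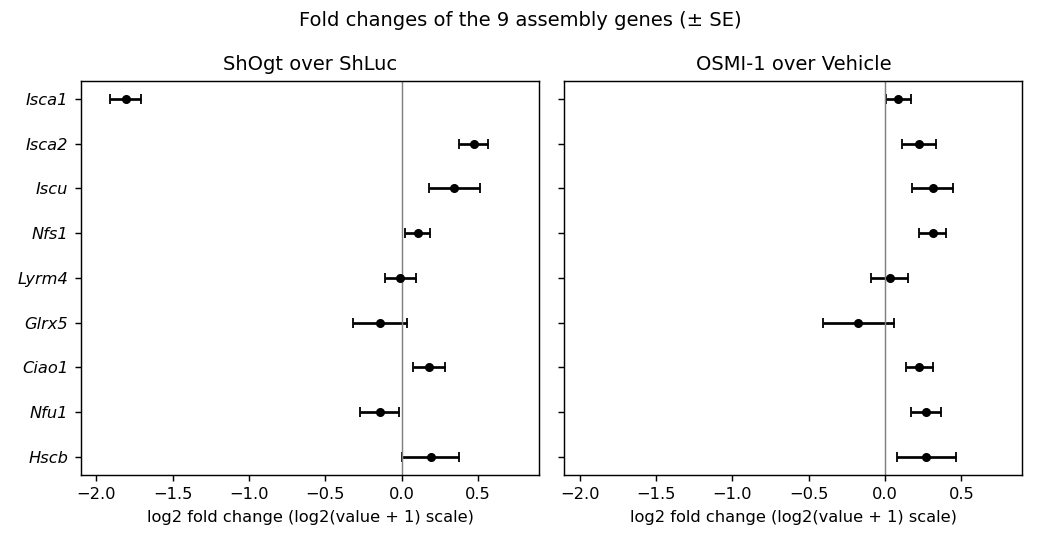
Log2 fold changes of the 9 genes on the log2(normalized count + 1) scale, points with ± 1 SE, for ShOgt over ShLuc (left) and OSMI over Vehicle (right). Isca1 lies at -1.81 on the left and 0.09 on the right, and the other 8 genes lie between -0.17 and 0.47 in both panels.

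The 3′ untranslated letters were set against all genes. In the knockdown arm, 988 of 11276 genes searched (8.76%) held AACATGC. This is the comparison that picked the letters, so its shares are given as a description and support nothing. Of the genes with the letters, 29.4% fell and 8.3% rose in ShOgt, with a median log2 fold change of -0.19. Of the 10288 genes without it, 15.7% fell and 16.3% rose, with a median of 0.02. In the inhibitor arm, 11.1% of the genes with the letters fell and 13.2% rose, and 13.6% of the genes without them fell and 11.4% rose. Genes with the letters also had longer 3′ untranslated regions, with a median of 2750 bases against 992 in genes without them. Whether that length has a part in the difference was not tested. Ciao1, with 1 copy, had a log2 fold change of 0.18 ± 0.10 in ShOgt, and Isca1, with 2 copies, of -1.81 ± 0.10.

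With OSMI-1, Nfs1 and Nfu1 were called higher, 0 of the 9 genes were called lower, and 8 of 9 fold changes lay above 0. Over all genes tested, 11.6% were called higher, 13.2% were called lower, and 50.3% had fold changes above 0. Nfs1 kept its call in every alternative setting, whereas Nfu1 lost its call in 12 of them and kept it in 8. Isca1 was not among the genes called. The difference between the 2 arms was not tested, since each was normalized on its own.

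Nfs1 had 568, 631, 506, 489 and 553 counts in OSMI libraries 1, 2, 4, 5 and 6. In Vehicle it ran from 392 through a median of 450 to 486. All 5 OSMI libraries lay above every Vehicle library, though OSMI 5 only just did. The means were 549 ± 55.7 in OSMI and 442 ± 40.4 in Vehicle (SD, n = 5 and 6). The log2 fold change was 0.31 ± 0.09, with a limma adjusted p of 0.013 over all genes tested. Nfs1 stayed below 0.05 in all 20 alternative settings, with adjusted p from 0.00555 to 0.0488.

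Nfu1 had 334, 380, 384, 457 and 449 counts in OSMI libraries 1, 2, 4, 5 and 6. Its Vehicle values ran from 299 through 329 to 364. The 4 OSMI libraries other than OSMI 1 lay above all Vehicle libraries, and OSMI 5 and OSMI 6 were the highest. The means were 401 ± 51.7 in OSMI and 331 ± 22.2 in Vehicle, a log2 fold change of 0.27 ± 0.10 with a limma adjusted p of 0.045. This call held in 8 of 20 alternative settings, with adjusted p from 0.0155 to 0.129. It was lost without any one of OSMI 2 (adjusted p = 0.0562), OSMI 4 (0.0569), OSMI 5 (0.129), OSMI 6 (0.122), Vehicle 2 (0.0719), Vehicle 3 (0.0786), Vehicle 4 (0.102) or Vehicle 5 (0.0664), again by limma. It was also lost without the libraries that stood apart (0.126), without the filter (0.0557) and with reads scaled by library total without Rn45s (0.0564). The fold change stayed between 0.22 and 0.33 throughout.

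Ciao1 had 410, 376, 376, 388 and 402 counts in OSMI libraries 1, 2, 4, 5 and 6. In Vehicle it ran from 286 through 341 to 359. The groups did not overlap, and the OSMI libraries were close to each other. The means were 390 ± 15.4 in OSMI and 335 ± 28.9 in Vehicle, a log2 fold change of 0.22 ± 0.09. The limma adjusted p was 0.069, and it was below 0.05 in none of the 20 alternatives (0.0593 to 0.227).

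**Figure D3:**
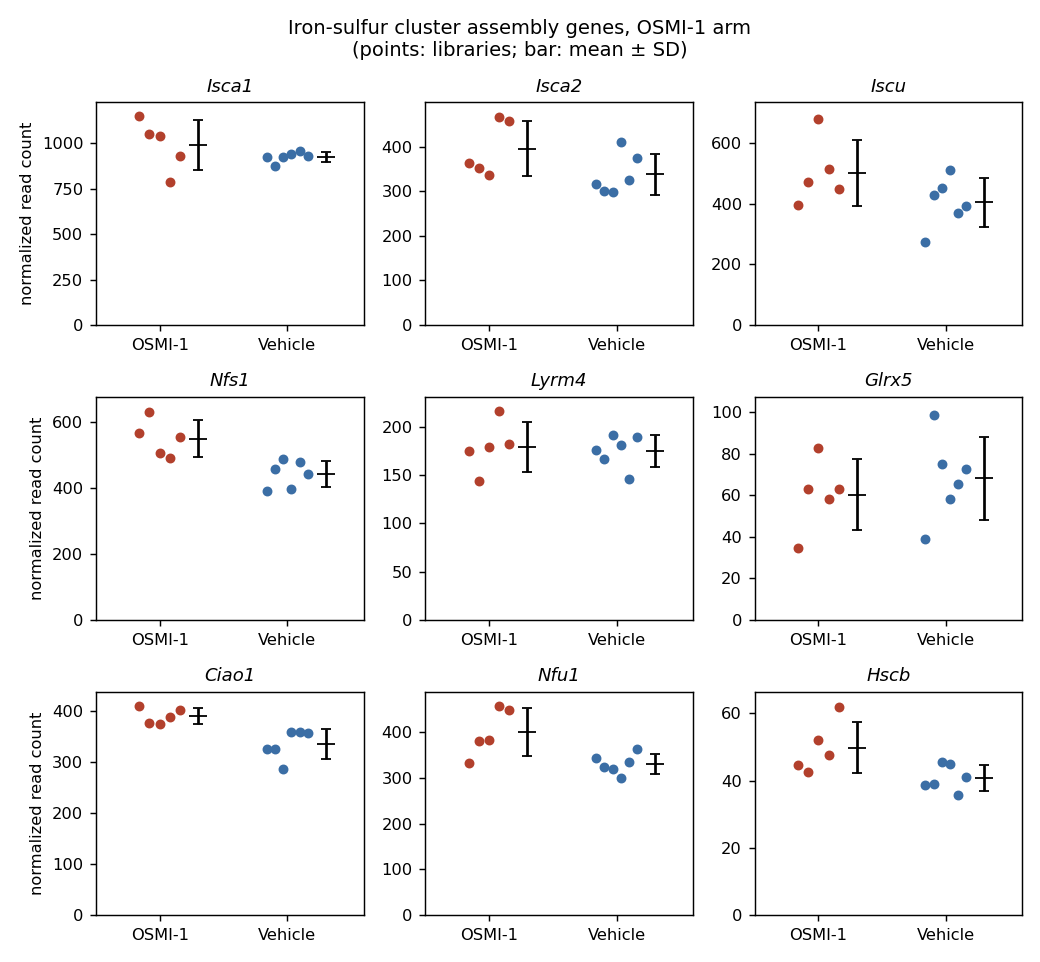
Normalized read counts of the 9 assembly genes in each library of the inhibitor arm, OSMI-1 left and Vehicle right, with the mean ± SD beside the points and axes starting at 0. The groups are separate for Nfs1 (489 to 631 in OSMI, 392 to 486 in Vehicle) and Ciao1 (376 to 410 in OSMI, 286 to 359 in Vehicle), and Isca1 overlaps (785 to 1149 in OSMI, 876 to 959 in Vehicle).

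Isca1 had 1149, 1051, 1042, 785 and 929 counts in OSMI libraries 1, 2, 4, 5 and 6, and 876 through 928 to 959 in Vehicle. The 6 Vehicle libraries were tight, with a coefficient of variation of 2.98%, and the OSMI libraries spread on both sides of them, with 3 above and 1 below. The log2 fold change was 0.09 ± 0.08, with a limma adjusted p of 0.49. Isca2 averaged 395 ± 61.7 in OSMI and 337 ± 44.9 in Vehicle, a log2 fold change of 0.22 ± 0.11 with a limma adjusted p of 0.15. The ratio of Isca1 to Isca2 counts was 1.68 to 3.17 in OSMI and 2.29 to 3.10 in Vehicle, so Isca1 gave the higher count in every library of this arm.

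The scaffold gene Iscu averaged 502 ± 108 in OSMI and 404 ± 79.9 in Vehicle. Its log2 fold change of 0.31 ± 0.14 came with a limma adjusted p of 0.10. Over all alternatives the fold change ran from 0.19 to 0.39 and that p from 0.018 to 0.327. The fold change was 0.20 without OSMI 4, 0.21 without Vehicle 1 and 0.19 without the libraries that stood apart. The limma adjusted p was below 0.05 without OSMI 1, at 0.0476, and with libraries blocked by replicate number, at 0.018. Hscb averaged 49.8 ± 7.64 in OSMI and 40.9 ± 3.84 in Vehicle (0.27 ± 0.19, limma adjusted p = 0.33). It rested on 40 to 121 recovered reads per OSMI library and 30 to 47 per Vehicle library. Lyrm4 averaged 179 ± 25.6 in OSMI and 175 ± 17.0 in Vehicle (0.03 ± 0.12, limma adjusted p = 0.89). Glrx5, the 1 gene with a fold change below 0, averaged 60.3 ± 17.1 in OSMI and 68.3 ± 19.9 in Vehicle (-0.17 ± 0.23, limma adjusted p = 0.63). Without OSMI 1 its fold change was 0.01.

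In this arm 2 of the 9 genes were called higher and 0 lower at a limma adjusted p below 0.05, while 4 of 9 had an unadjusted p below 0.05. Over all 11349 genes tested, 24.8% were called, 11.6% higher and 13.2% lower. The groups did not overlap in 2 of 9 assembly genes and in 14% of all genes. Fold changes lay above 0 in 8 of 9 assembly genes and in 50.3% of all genes, and the medians were 0.22 and 0.00. A count of 2 in 9 is near the share of all genes called in either direction.

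Levels of different genes were compared as normalized counts per kilobase of 1 annotated transcript. In ShOgt the order was Iscu (1751 ± 363), Isca2 (763.6 ± 80.1), Nfs1 (647 ± 49.4), Nfu1 (518 ± 105), Ciao1 (328 ± 49.9), Isca1 (260.3 ± 52.2), Lyrm4 (235 ± 27.7), Hscb (128.5 ± 26.4) and Glrx5 (56.6 ± 14.7). In ShLuc it was Iscu (1406 ± 372), Isca1 (900.1 ± 43.4), Nfs1 (602 ± 54.4), Nfu1 (562 ± 46.4), Isca2 (549 ± 33.7), Ciao1 (289 ± 36.2), Lyrm4 (235 ± 15.8), Hscb (112 ± 18.1) and Glrx5 (61.5 ± 10.5). Isca1 thus stood 6th of 9 in ShOgt and 2nd in ShLuc. In ShLuc the library ranges of Iscu and Isca1 overlapped, as did those of Nfs1, Nfu1 and Isca2 and those of Ciao1 and Lyrm4, whereas Isca1 and Nfs1 were separate.

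In the inhibitor arm, Iscu (524 ± 113 per kilobase), Isca1 (510.5 ± 71.7) and Isca2 (447.5 ± 69.9) led in OSMI, and Isca1 (477 ± 14.2), Iscu (422.5 ± 83.5) and Isca2 (382 ± 50.8) led in Vehicle. The ranges of these 3 overlapped in both groups. Below them the order was the same in both groups, with Nfu1, Nfs1, Ciao1, Lyrm4, Hscb and Glrx5. Glrx5 had the lowest level in all 4 groups, at 20.6 ± 5.86 per kilobase in OSMI and 23.3 ± 6.81 in Vehicle, and the largest relative spread in 3 of them, up to 29.2% in Vehicle. Isca1 had the smallest relative spread of the 9 genes in both control groups, at 4.82% in ShLuc and 2.98% in Vehicle, where the medians over all tested genes were 16.2% and 14.7%.

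**Figure D4:**
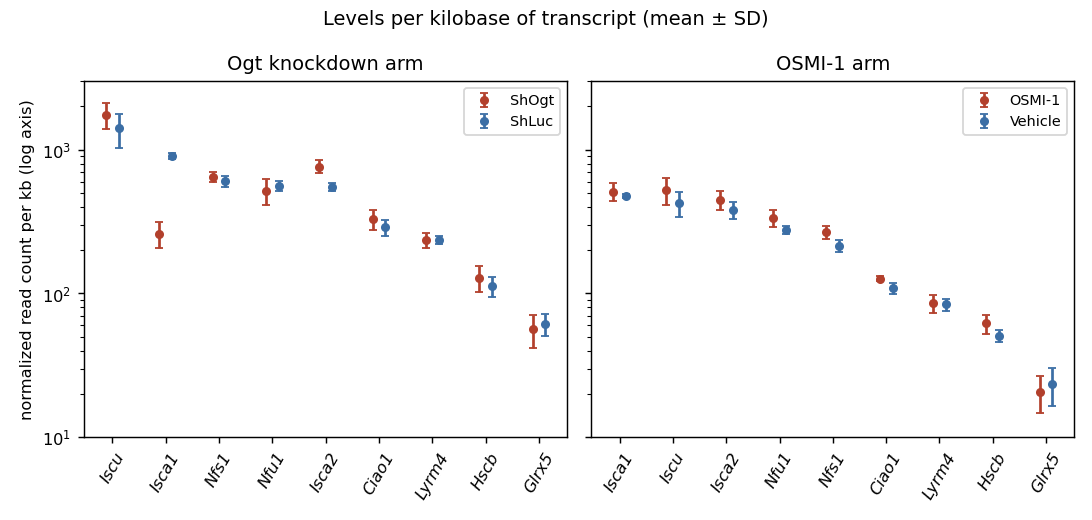
Normalized read counts per kilobase of transcript (mean ± SD, log axis) of the 9 genes, for ShOgt and ShLuc (left panel) and OSMI-1 and Vehicle (right panel), ordered by the ShLuc or Vehicle mean. Isca1 lies at 260.3 in ShOgt and 900.1 in ShLuc, and Isca2 is 2nd of 9 in ShOgt and 5th in ShLuc.

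The 5 genes whose fold changes in the 2 arms were nearest to those of Isca1, by Euclidean distance among 11269 genes tested in both, were Lims1 (distance 0.136), Tmem255b (0.171), Ptp4a1 (0.173), Rab2b (0.180) and Tmem65 (0.207). Lims1 had 741 ± 91.4 counts in ShOgt and 2352 ± 145 in ShLuc, and 1474 ± 112 in OSMI and 1374 ± 131 in Vehicle. Ptp4a1 had 177 ± 47.0 counts in ShOgt and 570.0 ± 77.9 in ShLuc. Of the 5, Ptp4a1, Rab2b and Tmem65 held 1 copy of AACATGC each in the transcript searched, and Lims1 and Tmem255b held none. Over all genes searched in the knockdown arm, 8.76% held it. Both the letters and these 5 genes were picked through the knockdown fold changes, so this count supports nothing. Tmem255b and Tmem65 were low genes, with 23.6 and 6.96 mean counts in ShOgt and 57.2 and 21.9 in ShLuc.

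Of the 9 genes, 6 (66.7%) start within 1000 bases of a coding gene on the other strand that runs the opposite way, against 16.9% of 11431 coding genes tested. These neighbours were looked up after the members' values had been seen. The pairs were Isca2 with Npc2 (99 bases apart), Ciao1 with Tmem127 (92), Hscb with Chek2 (202), Iscu with Sart3 (238), and Nfs1 with Romo1 and Lyrm4 with Fars2, whose annotations overlap by 147 and 114 bases. Whether the authors' counting used strand is not stated, so reads in the overlaps of Nfs1 and Romo1, of Lyrm4 and Fars2, and of Isca1 and the antisense gene Etohd2 cannot be told apart. Etohd2 averaged 23.5 counts in ShOgt and 15.1 in ShLuc.

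A member and its neighbour often had unlike values. Npc2, which carries cholesterol out of lysosomes, averaged 2591 ± 248 counts in ShOgt and 2463 ± 63.2 in ShLuc (log2 fold change 0.07 ± 0.07), where Isca2 was higher. It averaged 1994 ± 76.8 in OSMI and 1182 ± 40.6 in Vehicle, a rise of 0.75 ± 0.06 on the log2 scale (limma adjusted p = 3.4e-09), where Isca2 had 0.22 ± 0.11. Chek2, a kinase of the DNA damage response, fell beside Hscb, to 95.8 ± 19.2 in ShOgt against 156 ± 26.9 in ShLuc (-0.70 ± 0.18, limma adjusted p = 0.0049), and to 77.6 ± 19.3 in OSMI against 137 ± 26.5 in Vehicle (-0.82 ± 0.17, limma adjusted p = 0.0012). Sart3, a splicing factor, fell beside Iscu to 137 ± 46.2 in ShOgt against 221 ± 42.5 in ShLuc (-0.74 ± 0.20, limma adjusted p = 0.0091). Romo1, Tmem127 and Fars2 passed the test in neither arm. Romo1 had a log2 fold change of 0.26 ± 0.11 with OSMI-1 (limma adjusted p = 0.089) beside 0.31 ± 0.09 of Nfs1.

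The other genes of the pathway were grouped by function into 5 lists. Their counts stand against the shares of all genes given above, 15.4% higher and 16.4% lower in ShOgt, and 11.6% higher and 13.2% lower with OSMI-1. Of the 17 further genes of mitochondrial assembly and iron import that passed the filter in the knockdown arm, 2 rose and 4 fell in ShOgt, with a median log2 fold change of -0.13 against 0.01 over all genes. Hspa9, the mitochondrial chaperone that works with HSCB on the scaffold, fell to 3948 ± 318 counts in ShOgt against 5883 ± 416 in ShLuc (-0.58 ± 0.07, limma adjusted p = 3e-06). Fdxr, the reductase that feeds electrons to the ferredoxins, fell by 0.77 ± 0.15 and Slc25a28, a mitochondrial iron carrier, fell by 0.80 ± 0.30 on the log2 scale. Slc25a28 rested on 19.2 mean counts in ShOgt and 35.1 in ShLuc, and kept its call in 6 of 20 alternatives. That call was lost without any 1 of the 5 ShOgt libraries or of ShLuc 3, 4, 5 and 6, and without the libraries that stood apart. Abcb10, a mitochondrial transporter, rose by 0.55 ± 0.14, and the ferredoxin Fdx1 rose by 0.36 ± 0.11.

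With OSMI-1, 0 of 16 genes of the same list passed the limma test, 4 had an unadjusted p below 0.05, and the median was 0.01. DESeq2 called 1 of them and edgeR 0. Without OSMI 1 it was 3, and without OSMI 4 or Vehicle 4 it was 1. In all, the count moved in 7 alternatives and stayed the same in 13. Hspa9 came nearest to a call, with 4 OSMI libraries below every Vehicle library and a log2 fold change of -0.16 ± 0.06. Its limma adjusted p was 0.05003, and it was called lower in 6 alternatives and not called in 14. Of the 12 cytosolic assembly genes, 0 rose and 1 fell in ShOgt, Nubp2, a scaffold component, at 1238 ± 160 counts in ShOgt and 1679 ± 163 in ShLuc (-0.44 ± 0.09). Without ShOgt 3 or ShLuc 2, and without the libraries that stood apart, 2 fell. With OSMI-1, 2 of 12 rose, the glutaredoxin Glrx3 (0.27 ± 0.07) and the adaptor gene Oraov1 (0.48 ± 0.16). The call of Oraov1 was lost without any one of OSMI 1, OSMI 4, OSMI 5, Vehicle 1, Vehicle 2 or Vehicle 3, which in all but OSMI 5 left 1 gene called, and also without the libraries that stood apart.

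Mitochondrial proteins that carry clusters had calls mostly downward in ShOgt and 1 upward with OSMI-1. Of 15, 1 rose and 5 fell in ShOgt, with a median of -0.07. The complex I subunits Ndufs8 (-0.49 ± 0.10), Ndufv1 (-0.31 ± 0.07) and Ndufs7 (-0.30 ± 0.09) were among those that fell. Cisd3, a mitochondrial cluster protein of the NEET family, rose to 255 ± 25.1 in ShOgt against 85.0 ± 17.0 in ShLuc (1.59 ± 0.17, limma adjusted p = 7.3e-07). With OSMI-1, 1 of 15 rose and 0 fell, with a median of 0.08. That gene was Sdhb, the cluster subunit of succinate dehydrogenase (0.30 ± 0.10, limma adjusted p = 0.039). Its call held in 10 of 20 alternatives, and was lost without any one of OSMI 2, 4, 5 and 6 or Vehicle 1, 3, 4 and 5 (0 genes of the list then called, or 1 other gene without OSMI 5), and also without the libraries that stood apart, with adjusted p over all alternatives from 0.00054 to 0.187.

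Cytosolic and nuclear proteins that carry clusters had the lowest median of the 5 lists in both arms. In ShOgt 0 of 21 rose and 13 fell, with a median of -0.44, and with OSMI-1, 1 rose and 8 fell, with a median of -0.15. When the list was split after the values were seen, 9 of 11 genes of DNA replication and repair and 4 of 10 others fell in ShOgt, and 7 of 11 and 1 of 10 fell with OSMI-1. The primase subunit Prim2 fell to 309.9 ± 25.3 counts in ShOgt against 554.5 ± 44.5 in ShLuc (-0.84 ± 0.10), and to 163 ± 27.4 in OSMI against 273 ± 19.3 in Vehicle (-0.75 ± 0.11). The polymerase Pold1 fell by 0.87 ± 0.12 in ShOgt and by 0.87 ± 0.09 with OSMI-1, and the helicase Rtel1 by 0.86 ± 0.12 and 0.79 ± 0.14. Elp3, a tRNA-modifying enzyme, fell by 0.44 ± 0.07 in ShOgt, and the polymerase Pole by 0.67 ± 0.13 with OSMI-1. Rev3l, the catalytic subunit of a translesion polymerase, rose to 903 ± 70.9 in OSMI against 495 ± 112 in Vehicle (0.89 ± 0.12), and had 485 ± 110 in ShOgt and 552 ± 99.0 in ShLuc. The proliferation marker Mki67 moved with these genes, with 636 ± 122 counts in ShOgt and 1286 ± 155 in ShLuc, and 287 ± 49.0 in OSMI and 738 ± 170 in Vehicle. Its part in these counts was not tested.

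Of the genes of iron uptake, storage and sensing, 2 of 16 rose and 3 fell in ShOgt, with a median of -0.02. Tfrc, the transferrin receptor, fell to 311 ± 71.8 in ShOgt against 574 ± 103 in ShLuc (-0.89 ± 0.15, limma adjusted p = 0.00019), and Hmox2 and Pcbp1 fell by 0.30 ± 0.09 and 0.26 ± 0.08. Cp, the ferroxidase ceruloplasmin, rose by 0.62 ± 0.11, and the ferritin light chain Ftl1 by 0.20 ± 0.07. The call of Ftl1 held in 11 of 20 alternatives and was lost without any one of ShOgt 1, 2, 3 and 5 or ShLuc 2, 4, 5 and 6. The call of Pcbp1 was lost without ShOgt 1, which left 1 gene that rose and 2 that fell, and also without the libraries that stood apart. With OSMI-1, 3 of 15 rose and 1 fell, with a median of 0.09. Ftl1 rose to 24092 ± 1282 in OSMI against 16691 ± 1087 in Vehicle (0.53 ± 0.06, limma adjusted p = 1.2e-06), the heme oxygenase Hmox1 by 0.35 ± 0.10 and the ferritin receptor Ncoa4 by 0.26 ± 0.09, while the iron chaperone Pcbp2 fell by 0.28 ± 0.09. Without OSMI 2 or Vehicle 4, 2 rose and 0 fell, since the calls of both Ncoa4 and Pcbp2 were lost. The call of Ncoa4 was lost too without OSMI 1, OSMI 6, Vehicle 1 or Vehicle 2, and that of Pcbp2 without OSMI 4.

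**Figure D5:**
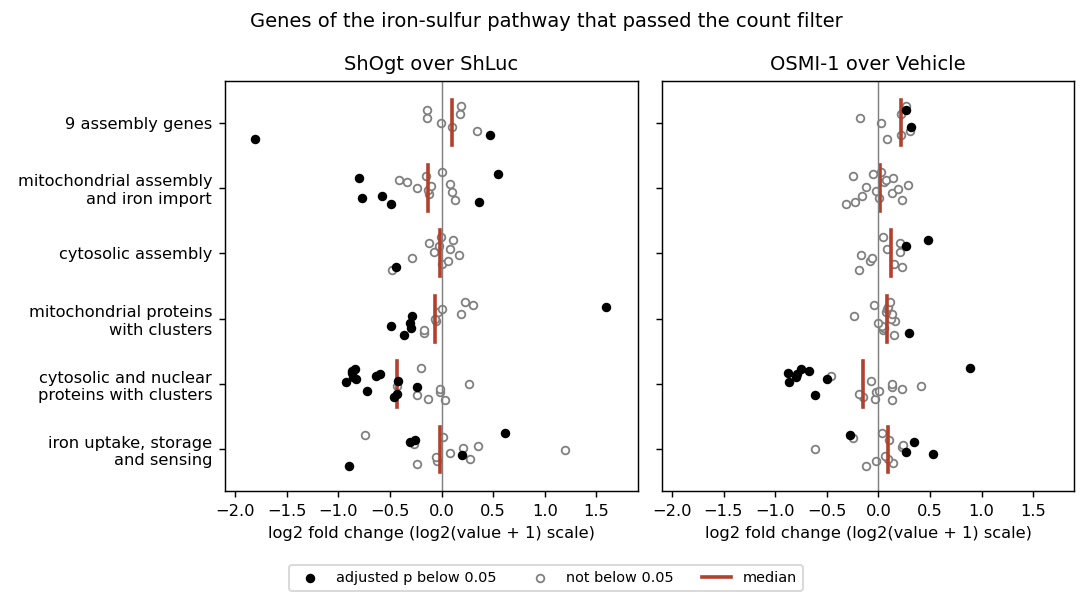
Log2 fold changes on the log2(normalized count + 1) scale of every gene of the 9 and of the 5 further lists that passed the count filter, for ShOgt over ShLuc (left) and OSMI over Vehicle (right). Filled points have a limma adjusted p below 0.05 and the vertical bars are medians, lowest for the cytosolic and nuclear cluster proteins at -0.44 and -0.15.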

How the data were processed

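RNA was sequenced in 22 libraries, and the authors deposited 1 table per arm. Per the file headers each table holds normalized counts per library (a signal: gene counts over a size factor), with the authors' log2 fold change, its test statistic (a score) and its p-value, none of which is printed here. STAR, RSEM and DESeq2 were used, without versions, per the submitters' processing notes, whose build is a human one although the symbols are of the mouse, so no coordinates of that build were used. The labels' extract protocol describes strand-specific poly(A) libraries and the series design text Smart-Seq2, which was not settled. Values above 0 were whole multiples of 1 step per library (tolerance 0.001), so reads were recovered from them, and their totals (M, megareads) served as depth. Read numbers reflect counting error only. Per-library columns not used numbered 0.

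From the deposited values, log2(normalized count + 1) was tested within each arm by limma 3.58.1 with an intensity trend (R 4.3.3), two-sided, without covariates, on genes kept by filterByExpr of edgeR 4.0.16 on those reads (at least 10 counts, total at least 15). This kept 12136 and 11349 genes. P-values were adjusted by Benjamini-Hochberg over all of them and called at 0.05. The fit was tested on simulated data. The members and lists were chosen with earlier results of these data known. Named are the 9 members, Ogt, the 5 genes nearest to Isca1, and in each list and arm up to 4 genes called higher and up to 4 called lower with the smallest p. Head-to-head neighbours, the split of the nuclear list, Rev3l in the knockdown arm, Etohd2 and Mki67 were chosen after the values were seen. Some genes that this rule names are not reported here. Transcripts, positions and 3′ sites came from GENCODE M21 and promoters from RefSeq.

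Alternatives were edgeR and DESeq2 1.42.0 on recovered reads, TMM factors, RPM (reads scaled by library total) without Rn45s, pseudocounts 0.5 and 5, no filter, a replicate block, each library left out, and the libraries that stood apart left out. Over all genes tested, same-numbered libraries of the 2 groups showed little shared deviation. Correlations lay between -0.0086 and 0.16 for knockdown and between -0.099 and 0.051 for OSMI-1, so the numbers were not taken as pairs. The number 3 libraries of the knockdown arm had the highest correlation. They also lay together on the third principal component, ShOgt 3 at -34.0 and ShLuc 3 at -33.6. Whether they share a source was not tested. No libraries agreed within sampling noise (smallest chi-square per degree of freedom 5.73 and 3.63).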

Additional observations from a re-analysis of the deposited data

Results flagged for a closer look

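In 3 of 36 member and group combinations, 1 library lay far from the others by the ratio of its gap to the whole range. Chance marks about 1 in 20 such groups. Isca1 in ShOgt 5 had 681.9 normalized counts, while the other 4 ShOgt libraries had 433.9 to 487.4, and every ShLuc library was higher still. Nfu1 in ShOgt 3, a library that also stood apart on principal components, had 395.3, while the other 4 had 666.9 to 687.5. Ciao1 in ShLuc 1, which stood apart too, had 1108, while the other 5 ShLuc libraries had 791.3 to 880.5.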

How the results depend on the processing

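In the knockdown arm, whose result helped to choose the genes, 2 of the 9 were called in every alternative without a block, which is no independent support. Isca1 kept log2 fold changes of -1.92 to -1.73 and Isca2 of 0.42 to 0.53 over all 20. With OSMI-1, where 2 were called, 1 was called with no filter on low counts, 1 with RPM without Rn45s and 1 without the libraries that stood apart, and leaving out 1 library gave 1 to 3. The lost call was that of Nfu1, and the added one that of Iscu. The numbers of all genes and of other pathway genes called stayed within 1.5 times of 3855 and 31 (knockdown) and 2815 and 16 (OSMI-1). With the replicate block, which rests on numbers that share no stated source, 3962 genes, 3 members and 33 other pathway genes were called in the knockdown arm. The member added there was Iscu, with a log2 fold change of 0.41. With that block, 2376 genes, 2 members and 13 other pathway genes were called with OSMI-1, where Nfu1 lost its call (adjusted p = 0.0896) and Iscu gained one (0.018). Only ShOgt 3 correlated best with its own number. No result reversed in sign while called. Scalings moved the median of all genes by at most 0.054 on the log2 scale. Depth limits Hscb and Glrx5 most, at 30 to 47 and 38 to 89 reads per Vehicle library.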
